A study of Oryzias latipes with 27 samples.

Results

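The BMP, activin and TGF-beta signalling genes described here are 43 of the 26099 genes counted in gonads of medaka (Oryzias latipes). They were taken by symbol: every gene whose symbol begins with bmp followed by a digit or r, with gdf followed by a digit, or with inhb, tgfb, acvr, smad followed by a digit, nodal, fst, nog, chrd or grem, together with inha. bmp15 and gdf9, the oocyte growth factors of the family, were left out. The members comprise 16 ligands, 8 receptors, 6 Smads, 9 secreted antagonists and their relatives, and 4 genes that carry the family's name without belonging to its core. Genes of the family that the table lists only under a locus number are not among them, and neither are amh and gsdf, whose symbols the rule does not read. In the annotation the spans of 7 members overlap another gene (bmp2, bmp6, fstl4, nog, bmpr2, smad3 and smad9). Whether exons overlap was not checked. Since counting used no strand, their counts may be affected there in either direction.

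In this pathway a secreted ligand dimer binds a pair of serine/threonine kinase receptors, the type II receptor phosphorylates the type I receptor, and that receptor phosphorylates a Smad, which enters the nucleus with a partner Smad and regulates transcription. Antagonists such as follistatin, noggin and chordin bind the ligands outside the cell, and the inhibitory Smads act inside it. In vertebrate gonads, activins and inhibins are named for their effect on pituitary follicle-stimulating hormone, and BMP and TGF-beta ligands are made by oocytes and by the somatic cells around germ cells.

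Gonads were sequenced as poly(A) RNA-seq from 3 kinds of fish aged 10, 30 or 120 days after hatching (D10, D30, D120), with 3 libraries in each of the 9 groups. WT_Fe_Ov is the ovary of wild-type XX females, WT_Ma_Te is the testis of wild-type XY males, and MT_Fe_Ov is the ovary of XY fish that lack DMY, the Y-linked male-determining gene, and develop as females. The mutant was made with TALENs and has been passed on over generations. At D10 the tissue was the gonadal primordium with its neighbouring tissue, after the head and tail had been cut off, and the tail was genotyped for DMY. The labels name the gonad at all 3 ages, and the paper describes adjacent tissue for D10 only. The libraries are described as biological replicates, and nothing says how many fish entered each. DMY was not analysed here, so its knockout was not checked in the libraries.

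The libraries held 5551651 to 17586392 counts (median 12200597). The oocyte markers figla, zar1, bmp15, zglp1 and nobox summed to 1661 to 2418 FPKM in the D30 and D120 ovaries and to 10.98 to 43.9 in the testes of those ages, so the labels of ovary and testis hold there. At D10 the same sum was 1.995 to 10.9 in the ovaries and 0.651 to 1.24 in the testes, without overlap. Over all 9 libraries of D10, 3 fibrinogen genes of liver summed to 92.3 to 1083 and 3 skeletal muscle genes to 53.2 to 310.1. The D30 testis libraries were sequenced with shorter reads than the others, so read length and the D30 testis cannot be told apart. Replicate 1 of the D10 testis resembled the ovaries (r of 0.961 to 0.971 across genes with the 6 ovary libraries, on log2 FPKM + 1, and 0.928 and 0.895 with the other testes), and replicate 2 of the D30 MT_Fe_Ov stood apart in several members. Replicate 2 of the D10 testis was also closer to WT_Fe_Ov (0.947 to 0.956) than to the other testes (0.928 and 0.938), and was at 0.922 to 0.928 with MT_Fe_Ov. The testis somatic marker gsdf was at 9.085, 12.5 and 2.30 in D10 testis replicates 1, 2 and 3, and 1.32 to 3.66 in the D10 ovaries. In the same testis replicates figla was at 0.0614, 0 and 0.238, against 0.629 to 3.93 in the ovaries. The ovarian marker foxl2 was at 0.127, 0 and 0.122, against 0.377 to 1.27. Replicates 2 and 3 had the fewest counts at D10 (7243501 and 5551651). In bulk samples, fewer cells of a type and less RNA per cell cannot be told apart.

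Levels below are the deposited FPKM values (counted fragments scaled to exon length and library size) divided by the library's TMM factor, a scaling factor estimated by edgeR. Fold changes are log2 values ± SE from edgeR's quasi-likelihood test, with p adjusted by Benjamini-Hochberg over all genes tested. A gene was called where the adjusted p did not exceed 0.05 and the log2 fold change was 1 or more in size. The ovaries of both genotypes formed 1 group, which gives 6 ovary against 3 testis libraries at each age. With 6 ovary libraries, the lowest, the median and the highest are given.

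bmp4, a BMP ligand on chromosome 22 (7806510 to 7814642 of ASM223467v1), was the member for which the study designed RT-qPCR primers. They are shown because they define the piece of a member's transcript that was also assayed outside these libraries, written 5′ to 3′ as listed.
bmp4 forward: acctgtacctctactgatgagaca
bmp4 reverse: gtggcctcaaagtcccgtaa
The level of bmp4 was 9.64, 10.7 and 11.2 in the D10 ovaries (lowest, median and highest) and 13.4, 4.76 and 4.01 in replicates 1, 2 and 3 of the D10 testis. At D30 it was 6.43, 7.71 and 13.7 in the ovaries and 5.22, 4.04 and 4.05 in the testes. At D120 it was 2.20, 3.45 and 5.05 in the ovaries and 1.13, 1.26 and 1.05 in the testes. The ovary libraries were above every testis library at D30 and D120, and at D10 replicate 1 of the testis lay above all ovaries. The difference at D30 depended on the scaling. The deposited FPKM, before the TMM factors, averaged 6.22 in WT_Fe_Ov, 6.99 in MT_Fe_Ov and 6.62 in the testis. In edgeR the D30 fold change was -0.01 ± 0.26 with library totals (adjusted p = 0.98) and 0.80 ± 0.26 with DESeq2's size factors (adjusted p = 0.013). With TMM the ovary to testis fold change was 0.48 ± 0.32 at D10 (adjusted p = 0.40), 0.95 ± 0.25 at D30 (adjusted p = 0.0043, under the fold threshold) and 1.58 ± 0.29 at D120 (adjusted p = 0.00027), of which only that of D120 was called. From D30 to D120 bmp4 fell in both gonads, by 1.30 ± 0.23 in the ovary (adjusted p = 0.00024) and by 1.95 ± 0.21 in the testis (adjusted p = 4.1e-06).

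**Figure D1:**
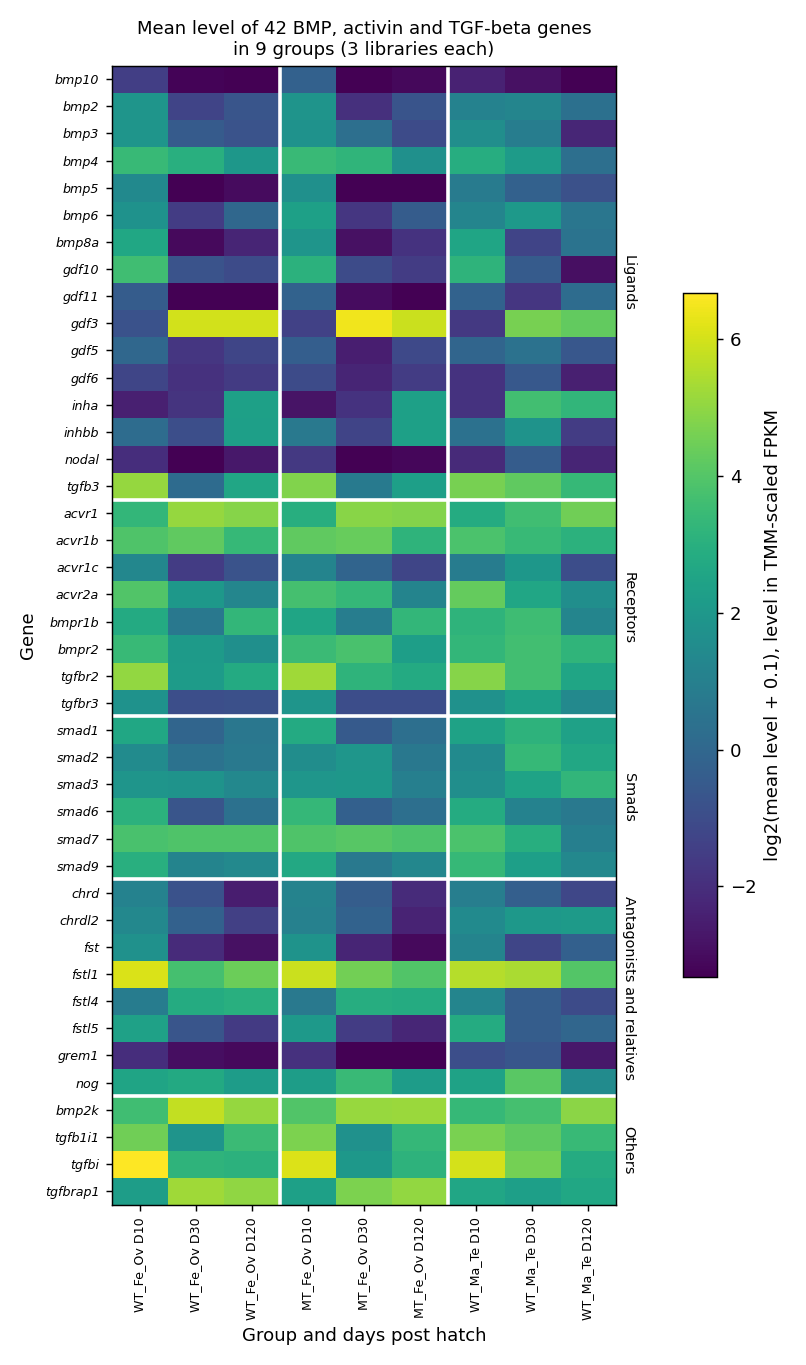
Mean level of 42 of the members (rows, by role) in the 9 groups (columns, 3 libraries each), drawn as log2 of the level in TMM-scaled FPKM plus 0.1. gdf3 is near the low end of the scale at D10 and high in both gonads later, with means of 75.6 in the D30 ovaries and 60.4 in the D120 ovaries.

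At D10 no member was called between ovary and testis by edgeR, against 0.23% of all genes called higher and 0.0242% called lower in the ovary. At an unadjusted p under 0.05, 5 members passed, among 5412 of all 24793 genes tested, and DESeq2 called 1 member, bmp10, a ligand known from the heart. Its level was 0.234, 0.406 and 1.07 in the ovaries and 0.149, 0.102 and 0.0361 in the testes, so the groups did not overlap, with a fold change of 2.26 ± 0.67 (adjusted p = 0.11 in edgeR). Without replicate 1 of the testis, 10 members were called higher in the ovary and 1 lower, when 9.0% of all genes were called higher and 6.8% lower. The 10 included the ligands bmp2, bmp3, bmp4, bmp5, bmp6, bmp10 and gdf6, the co-receptor tgfbr3 and tgfbi, and grem1 was the 1 called lower. Among these, bmp4 had a fold change of 1.22 ± 0.17 (adjusted p = 0.0031) and bmp6 of 2.06 ± 0.42 (adjusted p = 0.0086). The 2 remaining testis libraries had the fewest counts at D10 (7243501 and 5551651). They also held less summed cartilage and bone marker RNA (76.3 and 140.7) than the other 7 libraries of D10, whose lowest was 184.6. The part of depth and of that tissue in these calls was not tested.

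At D30, 25 of the 43 members were lower in the ovary than in the testis and 6 were higher, when 36.5% of all genes were called lower and 22.0% higher. The share of members was 58.1% lower and 14.0% higher. The median fold change over the members was -1.82, beside -0.53 over all genes tested. Ligands made up 11 of the 25 lower members, out of 16 ligands, and only gdf3 among the ligands was called higher.

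**Figure D2:**
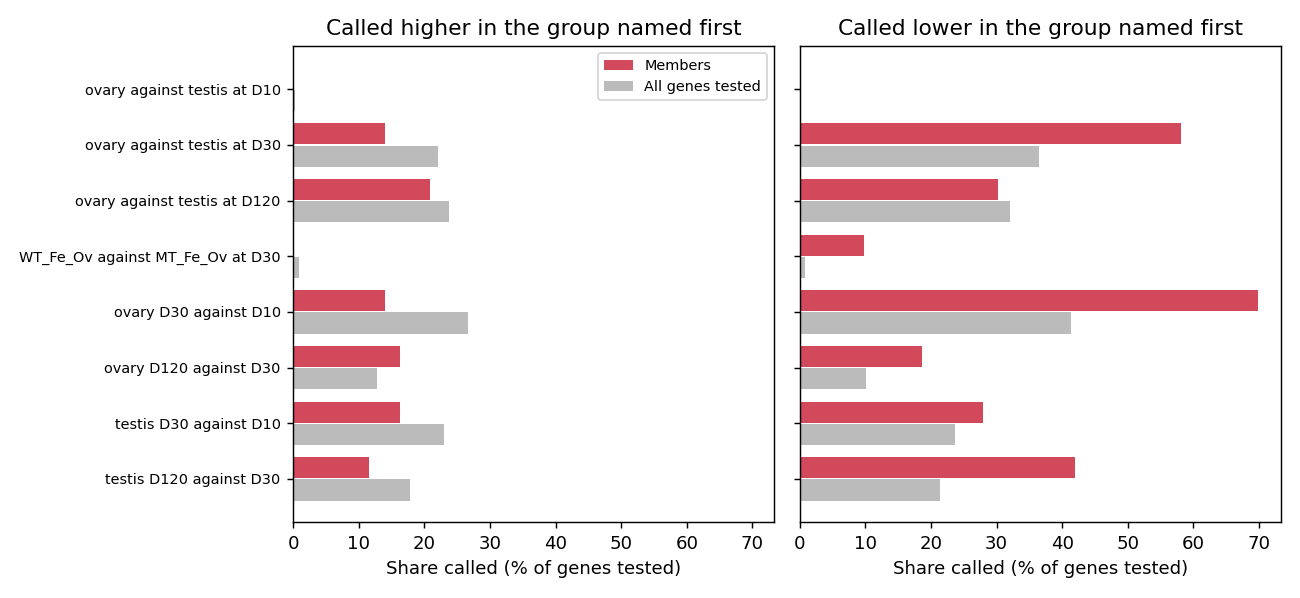
Share of genes called (horizontal axis, % of genes tested) in 8 comparisons, among the members (red) and among all genes tested (grey), for calls higher (left) and lower (right) in the group named first. The members' share lies furthest above that of all genes among the lower calls of the ovary at D30 against the testis (58.1% and 36.5%) and of the ovary from D10 to D30 (69.8% and 41.4%).

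Among the ligands, inha (chromosome 2, 13922681 to 13927663), which encodes the alpha subunit found in inhibins and not in activins, had the largest fold change in the D30 comparison among members with a mean of at least 1 FPKM in the higher group. Its level was 0, 0.149 and 0.403 in the ovaries and 11.35, 11.96 and 13.4 in the testes. Every testis library was above every ovary library by a wide margin, with a fold change of -6.02 ± 0.36 (adjusted p = 1.8e-08). inhbb (chromosome 2, 10774918 to 10785052), the beta B subunit shared by activin B and inhibin B, was at 0.0858, 0.380 and 0.664 in the ovaries and 3.52, 3.49 and 3.15 in the testes. It differed by -3.14 ± 0.38 (adjusted p = 7.5e-06), again without overlap.

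The TGF-beta ligand tgfb3 was at 0.606, 1.03 and 3.35 in the D30 ovaries and 17.6, 17.8 and 20.4 in the testes. The highest ovary value was that of replicate 2 of MT_Fe_Ov, and the groups did not overlap (fold change -3.82 ± 0.37, adjusted p = 1.1e-06). bmp6, a BMP ligand of the bmp5 to bmp8 subgroup, was at 0.123, 0.242 and 0.336 in the ovaries and 4.50, 3.98 and 3.84 in the testes (fold change -4.16 ± 0.30, adjusted p = 8.3e-08). Its gene overlaps txndc5 on the genome, and the counting used no strand, so its count may be affected if exons of both overlap. Other lower ligands were bmp2, gdf5 and gdf6, with fold changes of -3.09, -3.02 and -1.84. gdf6 had 14 counts over the ovaries and 73 over the testes, and its groups overlapped. bmp5, bmp8a, gdf11 and nodal were also lower and were near the detection limit in the ovary. bmp8a had 4 counts over the ovaries and 71 over the testes (fold change -3.49 ± 0.60). bmp5 and nodal had no count in any of the 6 D30 ovary libraries and 162 and 108 counts over the 3 testis libraries. Against a floor of 3 counts over the 6 ovaries, bmp5 was at least 38.4-fold and nodal at least 25.6-fold higher in the testis. gdf11 had 2 counts in the ovaries and 57 in the testes, a ratio of 20.3 (95% interval 5.36 to 171.6, counting error only). bmp3, gdf10, bmp4 and bmp10 were not called at D30.

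gdf3, which in zebrafish is the maternally supplied Vg1 that acts with nodal, went the other way. Its level was 63.0 to 63.7 in the 3 WT_Fe_Ov libraries, 84.2 to 91.2 in the 3 MT_Fe_Ov libraries and 24.9, 24.6 and 23.8 in the testes, the highest levels among the 16 member ligands at this age in both gonads. The fold change was 1.65 ± 0.16 (adjusted p = 1.4e-06). The oocyte markers named above moved with it, at 1993 to 2418 in the D30 ovaries and 37.5 to 43.9 in the testes, and their part in this result was not tested.

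Among the receptors, bmpr1b (chromosome 9, 11215122 to 11287804), a type I BMP receptor, was at 0.529, 1.48 and 3.83 in the D30 ovaries and 12.2, 10.2 and 12.5 in the testes. It was lower in the ovary by a fold change of -2.81 ± 0.38 (adjusted p = 2.2e-05), and the highest ovary library was again replicate 2 of MT_Fe_Ov. acvr1c, a type I receptor for nodal and activins, and tgfbr3, the co-receptor betaglycan that binds TGF-beta and inhibin, were lower too (fold changes -2.95 and -3.54). acvr1, a type I receptor of BMPs, was the 1 receptor higher in the ovary, at 20.3, 32.2 and 39.0 against 13.6, 11.3 and 11.7 (fold change 1.41 ± 0.19, adjusted p = 1.9e-05). acvr1 and acvr1c lie next to each other on chromosome 21 and moved in opposite directions at D30. The activin receptors acvr1b and acvr2a and the type II receptors bmpr2 and tgfbr2 were not called (fold changes 0.89, 0.22, -0.44 and -0.89). For acvr2a, bmpr2 and tgfbr2 these values pool ovaries that differed by genotype. At D30 bmpr2 averaged 4.25 in WT_Fe_Ov, 13.9 in MT_Fe_Ov and 12.4 in the testis. In the same order tgfbr2 averaged 4.32, 8.89 and 12.3, and acvr2a 3.89, 9.99 and 5.99.

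Of the Smads, smad1 and smad9, which carry BMP signals, smad2, which carries activin and TGF-beta signals, and the inhibitory smad6 were lower in the D30 ovary. smad2 was at 1.06, 2.20 and 4.93 in the ovaries and 10.1, 10.2 and 10.3 in the testes (fold change -2.05 ± 0.39, adjusted p = 0.00039). smad9 was at 1.30, 1.86 and 2.42 in the ovaries and 3.59, 5.94 and 5.24 in the testes (fold change -1.36 ± 0.25, adjusted p = 0.00034). Neither overlapped between the gonads, and smad1 had the larger fold change of -3.49 ± 0.26. The inhibitory smad7, the most abundant Smad over the 9 groups, was higher in the ovary, at 12.7, 15.8 and 19.1 against 7.06, 8.004 and 7.91 (fold change 1.07 ± 0.16, adjusted p = 6.6e-05). That call was lost with DESeq2's size factors (0.91) and with library totals (0.10). smad3, the other Smad of activin and TGF-beta signals, was not called, with a fold change of -0.57.

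Among the antagonists and their relatives, chrdl2, a chordin-like protein, was at 0.531, 0.771 and 0.924 in the D30 ovaries and 3.98, 3.997 and 3.84 in the testes (fold change -2.35 ± 0.24, adjusted p = 1.5e-06). The gonads did not overlap. fst, which encodes follistatin, the binding protein of activins, and grem1, a BMP antagonist, were lower in the ovary as well (fold change of fst -1.35 ± 0.46). grem1 had 2 counts over the ovaries and 74 over the testes, a ratio of 26.3 (95% interval 7.04 to 221.5, counting error only).

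fstl4, a follistatin-like gene, went the other way and had the largest fold change among the higher members, 3.42 ± 0.18 (adjusted p = 5.6e-09). Its level was 5.93, 7.09 and 8.33 in the D30 ovaries and 0.599, 0.676 and 0.764 in the testes, with no overlap, and it overlaps LOC111948631 on the genome. The fstl1 call depended on single libraries. Its level was 5.15 to 14.6 in 5 of the 6 ovaries, 53.7 in replicate 2 of MT_Fe_Ov, and 41.3, 41.3 and 42.9 in the testes. The fold change of -1.21 ± 0.50 (adjusted p = 0.045) became -1.89 (adjusted p = 4.2e-06) without that replicate, and without any 1 of the other 8 libraries the adjusted p was 0.062 to 0.10. Noggin (nog) showed the same library, at 20.7 beside 4.37 to 7.39 in the other 5 ovaries and 15.9, 18.1 and 17.5 in the testes, and was not called (fold change -0.97, adjusted p = 0.032). In that library 5 cartilage and bone markers summed to 56.1, against 4.49 to 21.0 in the other D30 ovaries and 125.0 to 147.1 in the D30 testes. Most of these sums was the collagen col1a2, at 52.0 in that library, 3.47 to 19.8 in the other D30 ovaries and 120.4 to 143.2 in the testes. col2a1a (3.70 against 0.441 to 1.05) and runx2 (0.158 against 0.0366 to 0.147) were above the other ovaries too, and matn1 and sp7 were within their range. The testis somatic marker gsdf was at 169.9 in that library, against 25.2 to 112.7 in the other D30 ovaries, while amh, cyp11b and star were within their range. The endothelial markers kdr (2.20 against 0.718 to 1.76) and tie1 (0.812 against 0.0994 to 0.652) were above the other ovaries as well. The part of all these tissues in these values was not tested. Without the library, 28 members were called lower and 6 higher.

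The 4 genes outside the family's core were all called at D30. tgfbrap1, whose product binds TGF-beta receptors and belongs to a vesicle-tethering complex, was at 17.6, 35.5 and 38.8 in the ovaries and 4.84, 4.78 and 4.995 in the testes (fold change 2.74 ± 0.24, adjusted p = 5.1e-07). bmp2k, a kinase first found as induced by BMP2, was at 19.7, 51.3 and 54.7 in the ovaries and 13.7, 12.8 and 12.4 in the testes (fold change 1.80 ± 0.28, adjusted p = 8e-05). In both, the lowest ovary library was replicate 2 of MT_Fe_Ov, which still lay above the testes. tgfbi, an extracellular matrix protein induced by TGF-beta, was lower in the ovary, at 2.18, 7.25 and 9.47 against 20.6, 24.8 and 25.2 (fold change -1.82 ± 0.33, adjusted p = 0.00026). tgfb1i1, a focal adhesion adaptor, was lower by -2.45 ± 0.39.

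These D30 directions were read against a scaling that matters at this age. TMM factors were 1.487 to 1.497 in the D30 testes and 0.740 to 0.802 in the D30 ovaries. With library totals in their place the median fold change of all genes shifted by -0.96, the share of higher genes among all calls went from 37.6% to 15.9%, and members were called 2 higher and 34 lower. gdf3, acvr1, bmp2k and smad7 then lost their calls, and no called member changed sign. The testis somatic markers gsdf, amh, cyp11b and star summed to 1465 to 1623 in the D30 testes and 60.2 to 203.0 in the D30 ovaries. They moved with the 25 lower members. So did the pancreas marker cpb1, at 233.4 to 280.3 in the D30 testes, 97.7 to 164.1 in WT_Fe_Ov and 0.355 to 3.14 in MT_Fe_Ov. The endothelial markers kdr and tie1 summed to 6.82 to 8.15 in the testes and 0.817 to 3.01 in the ovaries. The oocyte markers, foxl2 and the liver markers went the other way. The part of all these markers in those results was not tested.

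At D120 the balance was different: 13 members were lower in the ovary and 9 higher, when 32.0% of all genes were called lower and 23.8% higher, and the members' shares were 30.2% and 20.9%. The median fold change was -0.37 over the members and -0.28 over all genes. Ligands gave 5 of the 9 higher members (inhbb, gdf3, bmp4, bmp3 and gdf10) and 3 of the 13 lower ones (bmp5, bmp8a and gdf11). Of the 9 antagonists and relatives, 5 were lower (chrd, chrdl2, fst and fstl5 among them), and fstl4 was higher. Of the Smads, smad1, smad2 and smad3 were lower and smad7 was higher.

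inhbb had the opposite order at D120. Its level was 3.94, 5.05 and 5.69 in the ovaries and 0.107, 0.253 and 0.367 in the testes, with a fold change of 4.37 ± 0.29 (adjusted p = 1.1e-08). bmpr1b had done the same, at 5.49, 10.0 and 12.2 in the ovaries and 2.27, 2.45 and 1.94 in the testes (fold change 2.12 ± 0.23, adjusted p = 1.8e-06). They were the 2 members lower in the ovary at D30 and higher at D120, and none went from higher to lower.

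The difference of the ovary-testis contrast between the ages was tested in 1 fit of all 27 libraries. The contrast of inhbb rose by 7.57 ± 0.60 on the log2 scale (adjusted p = 2.9e-10) and that of bmpr1b by 4.95 ± 0.50 (adjusted p = 1.4e-08). In all, 20 members had a contrast that moved up towards the ovary and 6 one that moved down, when 21.4% of all genes were called up and 17.6% down. The median over the members was 1.44, beside 0.19 over all genes. Of the 16 ligands, 10 moved up (bmp2, bmp3, bmp6, gdf5, gdf6, gdf10, inha, inhbb, nodal and tgfb3) and none moved down. The 6 that moved down were acvr1, smad3, chrdl2, fst, fstl5 and bmp2k. With library totals, the share of up calls among all calls went from 55.0% to 76.8%, and the members were called 24 up and 2 down. The calls of acvr1, smad3, fstl5 and bmp2k were then lost. Without replicate 2 of the D30 MT_Fe_Ov, left out after its values were seen, 22 moved up and 6 down. Without replicate 2 of every group, 20 moved up and 3 down.

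**Figure D3:**
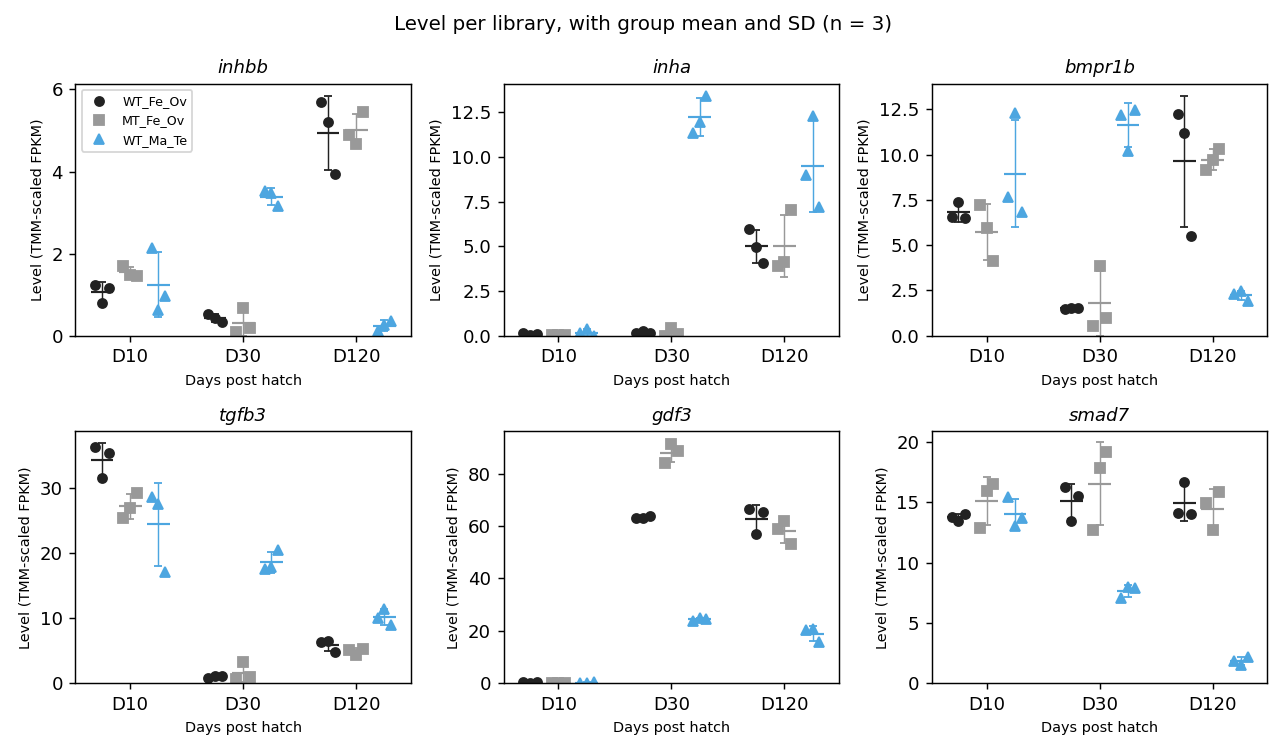
Level per library in TMM-scaled FPKM (vertical axes) of inhbb, inha, bmpr1b, tgfb3, gdf3 and smad7 at D10, D30 and D120, for WT_Fe_Ov (black circles), MT_Fe_Ov (grey squares) and WT_Ma_Te (blue triangles), with the mean and SD of each 3 libraries. inhbb and bmpr1b are higher in the testis at D30 and higher in the ovary at D120, and inha rises in the ovary from a median of 0.149 at D30 to 4.53 at D120.

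inha itself was no longer called at D120, at 3.89, 4.53 and 7.04 in the ovaries and 8.98, 12.3 and 7.21 in the testes (fold change -0.92 ± 0.22, adjusted p = 0.0019). Every testis library was still above every ovary library, and the difference lay under the fold threshold. tgfb3 was in the same position, at 4.31, 5.19 and 6.51 in the ovaries and 10.1, 11.3 and 8.91 in the testes (fold change -0.91 ± 0.16, adjusted p = 0.00014). bmp6 had come closer, at 0.440, 0.611 and 1.71 against 1.44, 1.17 and 1.59, and its groups overlapped through replicate 3 of WT_Fe_Ov (fold change -0.85 ± 0.40, adjusted p = 0.071).

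gdf3 stood where it had been at D30, at 53.3, 60.4 and 66.4 in the ovaries and 20.4, 20.9 and 15.8 in the testes (fold change 1.67 ± 0.11, adjusted p = 1.1e-08). The change of its contrast from D30 was 0.05 ± 0.29. gdf11, a ligand close to myostatin, had no count in any D120 ovary and 190 counts over the 3 testes, at least 85.6-fold higher in the testis against a floor of 3 counts over the 6 ovaries. Its level in the testes was 1.09, 1.16 and 0.878. gdf10 was low in both, with 44 counts over the ovaries and 3 over the testes, a ratio of 10.9 (95% interval 3.48 to 54.6, counting error only).

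smad7 had a larger contrast at D120 than at D30 (difference 1.92 ± 0.21, adjusted p = 6.1e-08), at 12.7, 14.5 and 16.6 in the ovaries and 1.88, 1.55 and 2.19 in the testes (fold change 2.97 ± 0.16, adjusted p = 8.5e-10). The ovary level was within 12.7 to 19.1 at D30 as well, while the testis level fell from D30 to D120 by 2.03 ± 0.18 on the log2 scale (adjusted p = 6.5e-07). smad3 moved in the other direction, with a fold change of -2.14 ± 0.21 at D120 and a change of its contrast of -1.55 ± 0.27 (adjusted p = 3.5e-05). That change was not called with library totals. smad3 overlaps aagab on the genome. smad2 was at 1.16, 1.32 and 2.25 in the D120 ovaries and 6.17, 6.56 and 6.197 in the testes (fold change -2.06 ± 0.20, adjusted p = 4.9e-07). With the ovaries pooled, its contrast did not change beyond its error (0.17 ± 0.32). That pool hides a genotype difference at D30, where smad2 averaged 1.27 in WT_Fe_Ov and 3.665 in MT_Fe_Ov. At D120 it averaged 1.53 and 1.48. The change of the contrast within each genotype was not tested.

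Among the antagonists at D120, chrdl2 was at 0.0712, 0.113 and 0.533 in the ovaries and 4.10, 5.07 and 3.70 in the testes (fold change -4.51 ± 0.44, adjusted p = 5.9e-07). The highest ovary library was replicate 2 of WT_Fe_Ov, far under the testes. fst was at 0 to 0.0533 in the ovaries and 0.736, 0.824 and 0.653 in the testes (fold change -4.60 ± 0.53, adjusted p = 3.5e-06). This rests on 6 counts over the ovaries and 118 over the testes. fst is among the ovarian markers of many vertebrates, and here another ovarian marker, foxl2, was at 16.4 to 32.9 in the same ovaries and 0 to 0.0482 in the testes. fstl4 was at 6.32, 7.37 and 8.37 in the ovaries and 0.321, 0.415 and 0.416 in the testes (fold change 4.26 ± 0.16, adjusted p = 3.4e-11).

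**Figure D4:**
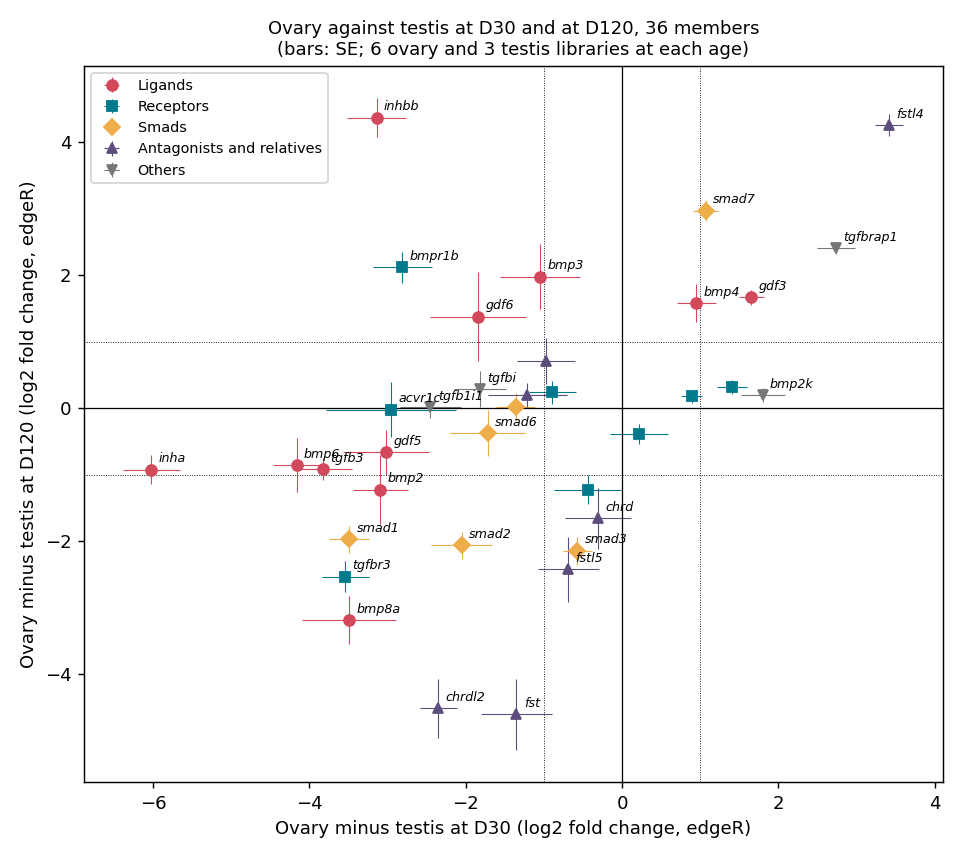
Ovary minus testis log2 fold change (edgeR) at D30 (horizontal axis) and at D120 (vertical axis) for 36 members, coloured by role, with bars of 1 SE and dotted lines at the fold threshold of 1. Members with at most 3 counts in one of the groups, 6 in all, are not drawn. inhbb (-3.14 and 4.37) and bmpr1b (-2.81 and 2.12) lie in the upper left, fstl4 (3.42 and 4.26) in the upper right and chrdl2 (-2.35 and -4.51) in the lower left.

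Over both ages, 9 members were lower in the ovary at D30 and at D120 (among them bmp5, bmp8a, gdf11, tgfbr3, smad1, smad2, chrdl2 and fst). Another 4 were higher at both (gdf3, smad7, fstl4 and tgfbrap1). Lower at D30 alone were 14, higher at D30 alone 2 (acvr1 and bmp2k), lower at D120 alone 4 (bmpr2, smad3, chrd and fstl5) and higher at D120 alone 3 (bmp3, bmp4 and gdf10). The remaining 5 (bmp10, acvr1b, acvr2a, tgfbr2 and nog) were called at neither age. A call at 1 age only is not by itself a difference between the ages, for which the test of the contrast above applies. The classes use pooled ovaries, which at D30 differed by genotype in acvr2a, bmpr2, tgfbr2 and smad2, as given below.

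The ovaries of wild-type XX females and of XY fish lacking DMY were compared at each age with 3 libraries against 3. Since DMY is Y-linked, the XX ovaries have no DMY either. At D10 edgeR called no member, with 8 at an unadjusted p under 0.05 (4638 of all 24605 genes tested), when 0.142% of all genes were called higher and 0.232% lower in WT_Fe_Ov, and DESeq2 called bmp10 alone as lower. At D120 it called none of 42 members tested, with 2 at an unadjusted p under 0.05 in edgeR (1693 of all 24122 genes tested) and 2 in DESeq2, when 0.0373% and 0.0663% of all genes were called. At D30, 4 of the 41 members tested were called, all lower in WT_Fe_Ov than in MT_Fe_Ov, when 0.801% of all genes were called lower and 0.881% higher. They were the type II receptors acvr2a (activin), bmpr2 (BMP) and tgfbr2 (TGF-beta), and smad2, and DESeq2 called tgfbi in addition, as higher.

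acvr2a was at 4.72, 3.57 and 3.38 in replicates 1, 2 and 3 of WT_Fe_Ov and 10.1, 12.6 and 7.32 in those of MT_Fe_Ov (fold change -1.36 ± 0.22, adjusted p = 0.025). bmpr2 was at 4.26, 3.88 and 4.61 against 10.2, 12.7 and 18.8 (fold change -1.71 ± 0.23, adjusted p = 0.013). tgfbr2 was at 3.62, 4.66 and 4.67 against 8.18, 10.2 and 8.26 (fold change -1.04 ± 0.19, adjusted p = 0.035). smad2 was at 1.56, 1.06 and 1.21 against 2.83, 3.24 and 4.93 (fold change -1.53 ± 0.28, adjusted p = 0.034). The genotypes did not overlap in any of the 4 genes at D30. The D30 testes were at 5.63 to 6.51 for acvr2a, 11.7 to 13.2 for bmpr2, 10.47 to 14.9 for tgfbr2 and 10.1 to 10.3 for smad2, so for tgfbr2 and smad2 every MT_Fe_Ov library lay between the WT_Fe_Ov and the testis libraries. bmpr2 overlaps LOC111949061 on the genome. At D10 and D120 the fold changes of the 4 genes between the genotypes lay between -0.65 and 0.24, and none was called.

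**Figure D5:**
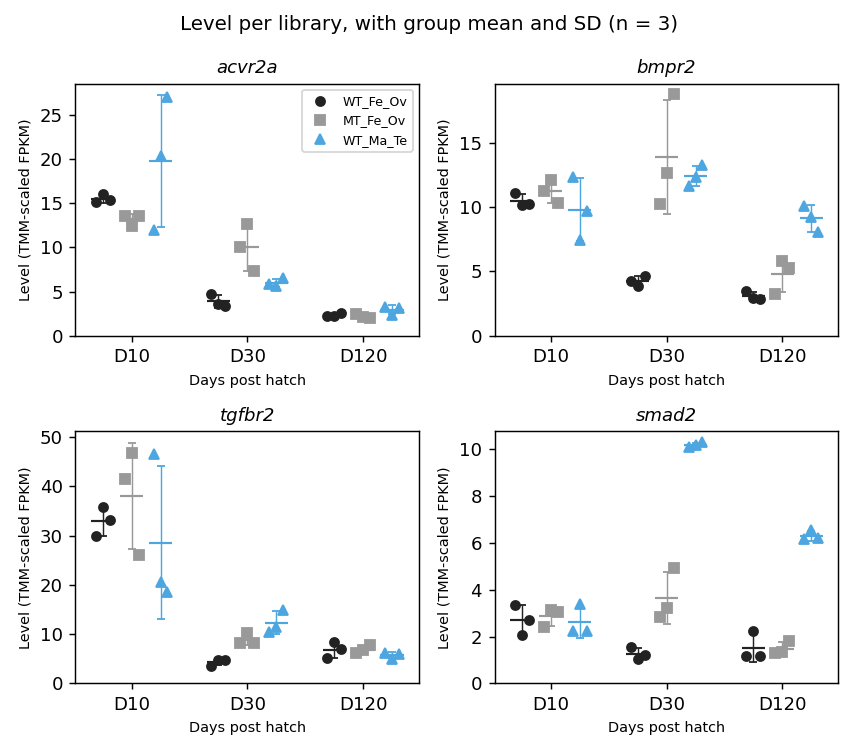
Level per library in TMM-scaled FPKM (vertical axes) of acvr2a, bmpr2, tgfbr2 and smad2 at D10, D30 and D120, for WT_Fe_Ov (black circles), MT_Fe_Ov (grey squares) and WT_Ma_Te (blue triangles), with the mean and SD of each 3 libraries. At D30 each MT_Fe_Ov library lies above each WT_Fe_Ov library in all 4 panels.

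These 4 calls depended on the libraries and the threshold. All 4 were made as well with DESeq2, in 1 fit of all 27 libraries, with filterByExpr, with the replicate block and without replicate 3 of MT_Fe_Ov. None was left without any 1 of the 3 WT_Fe_Ov libraries, when the fold changes stayed at -0.95 to -1.79, and 1 was left without replicate 1 of MT_Fe_Ov (bmpr2). Without replicate 2 of MT_Fe_Ov, 3 members were called lower and 3 higher, and tgfbr2 fell just under the fold threshold (-0.94). With the adjusted p limited to 0.01 none was called by edgeR. Depth differed by genotype too: the D30 MT_Fe_Ov libraries held 6301347, 6977685 and 10129588 counts, and those of WT_Fe_Ov 14855932 to 15297992. The paper lists similar numbers of read pairs for both, so fewer of them were counted in MT_Fe_Ov. At D30, genotype and this difference between libraries cannot be told apart. Between the same libraries, the pancreas marker cpb1 was at 97.7 to 164.1 in WT_Fe_Ov and 0.355 to 3.14 in MT_Fe_Ov, the 6 germ cell markers summed to 647 to 691 and 715 to 850 (ddx4 was higher in MT_Fe_Ov, at 335.9 to 381.3 against 232.3 to 246.4, and piwil1 lower, at 66.8 to 148.5 against 159.7 to 168.7), and the ovarian marker foxl2 was at 10.4 to 12.02 and 3.08 to 10.9. The part of such differences in tissue in the 4 genes was not tested. gdf3 was lower in WT_Fe_Ov too (adjusted p = 0.045), with a fold change of -0.48 ± 0.10 under the threshold and no overlap.

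In the ovary from D10 to D30, 30 members fell and 6 rose, when 41.4% of all genes fell and 26.7% rose. The medians were -2.19 over the members and -0.59 over all genes tested. The 6 that rose were gdf3, inha, acvr1, fstl4, bmp2k and tgfbrap1. gdf3 rose from 0.187, 0.331 and 0.664 at D10 to 63.0, 73.9 and 91.2 at D30 (fold change 7.48 ± 0.23, adjusted p = 1.6e-13). inha was low at both ages, and its call (1.32 ± 0.56, adjusted p = 0.040) was lost without replicate 2 of the D30 MT_Fe_Ov (adjusted p = 0.078), with DESeq2 and with library totals. tgfb3 fell from 25.4, 30.4 and 36.2 to 0.606, 1.03 and 3.35 (fold change -4.74 ± 0.31, adjusted p = 4.2e-10). bmp5 had 648 counts over the D10 ovaries and none at D30, at least 147.1-fold lower at D30 against a floor of 3 counts over the 6 libraries. Since the D10 tissue included more than the gonad, with the liver and muscle genes at the levels given above and at most 2.01 and 2.28 later, the change of tissue and the change of age cannot be told apart.

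In the testis from D10 to D30, 12 members fell and 7 rose, when 23.7% and 23.0% of all genes did, and the same change of tissue applies. The 7 were gdf3, inha, inhbb, nodal, acvr1c, smad2 and nog. inha rose from 0.164, 0.356 and 0 to 11.35, 11.96 and 13.4 (fold change 6.09 ± 0.64, adjusted p = 0.00015) and smad2 from 2.23, 3.40 and 2.25 to 10.1, 10.2 and 10.3 (fold change 1.94 ± 0.25, adjusted p = 0.00037). With library totals the rising share of all calls went from 49.2% to 61.5%, and the members were called 11 up and 8 down. Without replicate 1 of the D10 testis, left out after its values were seen, 10 rose and 9 fell. Leaving out replicate 2 of both ages gave 3 that rose and 7 that fell, and leaving out replicate 1 of both gave 8 and 6.

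From D30 to D120, 7 members rose and 8 fell in the ovary, when 12.7% of all genes rose and 10.1% fell. The paper describes no adjacent tissue for these ages, and the labels do not tell how cleanly the gonads were dissected. The pancreas marker cpb1 was at 97.7 to 164.1 in the D30 WT_Fe_Ov libraries and 3.295 to 23.2 in those of D120. In MT_Fe_Ov it was at 0.355 to 3.14 and 0.882 to 2.86, and the part of such tissue in these changes was not tested. inhbb rose from 0.0858, 0.380 and 0.664 to 3.94, 5.05 and 5.69 (fold change 3.71 ± 0.29, adjusted p = 7.1e-08), and inha rose by 4.74 ± 0.37 (adjusted p = 6.2e-08). These are the subunits that together make inhibin B. The others that rose were bmp6, bmp8a, tgfb3, bmpr1b and tgfb1i1, with fold changes from 1.66 to 2.57. Those that fell were bmp4, acvr1b, acvr2a, bmpr2, chrd, chrdl2, fst and fstl5, so 4 of the 8 were antagonists or relatives. acvr2a fell by 1.62 ± 0.29 (adjusted p = 0.00021) and bmpr2 by 1.2 ± 0.36 (adjusted p = 0.013), and the D30 levels of both differed by genotype. acvr2a averaged 3.89 at D30 and 2.31 at D120 in WT_Fe_Ov, and 9.99 and 2.17 in MT_Fe_Ov. bmpr2 averaged 4.25 and 3.07 in WT_Fe_Ov, and 13.9 and 4.77 in MT_Fe_Ov, and its call was lost with library totals and without replicate 1 or replicate 3 of both ages (adjusted p = 0.059 and 0.06). With library totals the rising share of all calls went from 55.6% to 69.8%, and the members were called 10 up and 5 down. Without replicate 2 of the D30 MT_Fe_Ov, 8 rose and 8 fell.

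In the testis from D30 to D120, 18 members fell and 5 rose, when 21.3% of all genes fell and 17.8% rose. The medians were -0.90 over the members and -0.11 over all genes. inhbb fell from 3.52, 3.49 and 3.15 to 0.107, 0.253 and 0.367 (fold change -3.82 ± 0.30, adjusted p = 2e-07), while inha kept a level of 7.21 to 12.3 (fold change -0.37 ± 0.16, adjusted p = 0.065). bmpr1b fell by 2.39 ± 0.14 (adjusted p = 1.6e-08), and fstl1 and nog fell by 1.40 and 2.66. The 5 that rose included bmp8a, gdf11, fst and bmp2k, with fold changes of 2.01, 2.36, 1.15 and 1.22. With library totals the rising share of all calls went from 45.5% to 28.0%, and the members were called 3 up and 27 down. The calls of fst and bmp2k were then lost. The spermatocyte and spermatid markers summed to 174.6 to 197.5 in the D30 testes and 522.7 to 589.0 in the D120 testes, and those of testis somatic cells to 1465 to 1623 and 393.6 to 454.2. gsdf made up most of the latter sum and went from 1341 to 1509 down to 246.3 to 305.9, while amh went from 73.0 to 83.5 up to 122.2 to 132.2. The pancreas marker cpb1 went from 233.4 to 280.3 down to 19.9 to 26.7. The cartilage and bone markers went from 125.0 to 147.1 down to 9.215 to 9.88. Most of that sum was col1a2, which went from 120.4 to 143.2 down to 7.22 to 8.32. matn1 was at 1.097 to 1.717 and then 1.178 to 1.411, while col2a1a, sp7 and runx2 fell from at most 1.341. The part of all these markers in these changes was not tested.

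Other genes of the pathway were read from 3 lists. Of 23 further extracellular genes 10 were found by symbol, and at D30 6 of these were lower in the ovary and 2 higher, when 36.5% of all genes were called lower and 22.0% higher. The 2 were bambi, a decoy receptor, and sostdc1, a secreted antagonist, with fold changes of 1.56 and 1.90. sost, sclerostin in mammals, had the largest, at -7.08 ± 0.40 (adjusted p = 9.4e-09), and rgmb, a BMP co-receptor, and ltbp3, which binds latent TGF-beta, were at -4.56 and -3.99. At D120, when 32.0% of all genes were called lower and 23.8% higher, 3 were lower and 3 higher, and sost was at 0.21 ± 0.36. Of 17 intracellular genes 8 were found, with 1 lower (ski, a repressor of Smads) and 2 higher (zfyve9, a Smad anchor, and the kinase map3k7) at D30, and 4 lower at D120.

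Of 19 genes known as targets of the pathway in vertebrates 6 were found. At D30 5 were lower in the ovary, against the same shares of all genes, among them hey1, id3, ctgf and msx1, and id2 was higher (fold change 1.93 ± 0.19, adjusted p = 1.4e-06). At D120 hey1 was lower and 2 were higher, id2 among them. The ovary-testis contrast of id3, a target of BMP Smads, moved from D30 to D120 by 3.21 ± 0.38 (adjusted p = 1.9e-07). Between WT_Fe_Ov and MT_Fe_Ov none of the genes found from the 3 lists was called at any age.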

How the data were processed

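Poly(A) RNA-seq of 27 gonad libraries was used. The authors trimmed reads with fastp, aligned them with STAR to ASM223467v1 and counted read pairs per gene with featureCounts, without strand, and deposited the counts. FPKM values, which the authors computed with DESeq2, were deposited beside them. Columns were assigned to groups from the labels. Counts were fitted with edgeR 4.0.16 (limma 3.58.1, R 4.3.3), quasi-likelihood with TMM factors, for every gene with a total count of at least 1 in the libraries compared, and p was adjusted over all genes tested. The SE is the fold change divided by the square root of F. Levels are FPKM divided by TMM factors. The members and gene lists were chosen with earlier results of these data known. Full values were given for bmp4, for the 3 largest called fold changes per direction in each ovary-testis comparison (mean of at least 1 FPKM in the higher group), for members called between the genotypes or with opposite calls at D30 and D120, and for the 2 members of each role with the highest mean. Other members shown were chosen after their values were seen. Alternatives were DESeq2 1.42.0, its size factors, library totals, filterByExpr, stricter thresholds, a replicate block, 1 fit of 27 libraries, each ovary genotype alone and leaving out libraries. The fits were tested on simulated data. Values of 1 member and 1 listed gene are not reported here, and they remain in the counts. Genes that share reads with near-identical copies may be undercounted. Figures used Python 3.11.15 and matplotlib 3.10.9.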

Additional observations from a re-analysis of the deposited data

Results flagged for a closer look

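Of 66 sets of 6 ovary libraries at 1 age, 11 held a library far from the other 5 by Dixon's test. For independent sets from a single population, chance gives about 1 in 20. These sets share libraries between genes and pool both genotypes, so that rate cannot show an excess here. Replicate 2 of the D30 MT_Fe_Ov was the high library in 5 of them, with a level of 13.7 for bmp4 (others 6.43 to 8.67), 3.35 for tgfb3 (0.606 to 1.16), 3.83 for bmpr1b (0.529 to 1.55), 53.7 for fstl1 (5.15 to 14.6) and 20.65 for nog (4.37 to 7.39). Replicate 2 of the D120 WT_Fe_Ov was high for chrdl2, at 0.533 on 15 counts (0.0712 to 0.161). Replicate 3 of the same group was high for bmp6, at 1.71 (0.440 to 0.854). At D10, replicate 1 of WT_Fe_Ov was high for inha, at 0.145 on 4 counts (0.0314 to 0.0687), and low for gdf11, at 0.427 (0.704 to 0.844). Replicate 2 of the D10 WT_Fe_Ov was high for acvr1, at 12.05 (7.45 to 9.08), and replicate 1 of the D10 MT_Fe_Ov was low for fstl1, at 42.2 (61.1 to 72.4).

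The ovary-testis contrast differed between D120 and D30, with opposite calls at the 2 ages, for inhbb (difference of the log2 fold changes 7.57) and for bmpr1b (4.95), both tested in 1 edgeR fit of 27 libraries.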

How the results depend on the processing

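Of 314 alternative counts of called members, 280 were within 1.5 times of the reported count and 34 were not. Of 1398 alternatives for 101 named fold changes, 1257 kept their call, 141 lost it (49 of these with the fold threshold at 2) and 0 reversed. DESeq2 gave no adjusted p for a few of them, fstl1 at D30 among these. Of 207 named levels, 78 moved by over 1 SD without the TMM factor.

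With the log2 fold threshold at 2, the higher calls fell to 2 for ovary against testis at D30, 2 for the ovary from D10 to D30, 3 for the testis from D10 to D30 and 3 for the testis from D30 to D120. The lower calls fell to 0 between the genotypes at D30, 3 for the ovary from D30 to D120, 6 and 10 for the testis over the same 2 steps, and 2 for the difference of the contrast. With the adjusted p limited to 0.01, the lower calls were 0 between the genotypes at D30, 5 for the ovary from D30 to D120 and 6 for the testis from D10 to D30, where the higher calls were 4. With filterByExpr 5 were lower in the ovary from D30 to D120. With library totals 2 were higher at D30 against the testis, 5 lower in the ovary from D30 to D120, 11 higher in the testis from D10 to D30, 3 higher in the testis from D30 to D120 and 2 lower for the difference. DESeq2 called 1 higher for ovary against testis at D10, and between the genotypes 1 lower at D10 and 1 higher at D30. For WT_Fe_Ov against MT_Fe_Ov at D10, library totals moved the higher share of all calls from 38% to 57.1%.

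Leaving out single libraries gave 0 to 10 higher and 0 to 1 lower calls at D10, 6 to 7 higher and 22 to 28 lower at D30, and 0 to 3 higher and 0 to 4 lower between the genotypes at D30. Leaving out a replicate number gave 3 to 10 higher and 6 to 10 lower for the testis from D10 to D30, and 3 to 6 lower for the difference. The cause of these changes was not tested.

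No pairing of libraries by replicate number was seen: of 57 pairs with the same number, 4 had deviations correlated over 0.1 (range -0.0920 to 0.218). With 3 libraries per group this check cannot show that there was none. With a replicate block the calls higher and lower were 6 and 27 at D30, 9 and 13 at D120, 1 and 4 between the genotypes at D30, 5 and 30 and then 8 and 8 for the steps of the ovary, 5 and 12 and then 5 and 17 for those of the testis, and 20 and 6 for the difference.

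Depth limits bmp5, bmp10, gdf10, gdf11, nodal and grem1, which had at most 3 counts in a group of at least 1 comparison. It also limits bmp8a, with 4 counts over the D30 ovaries, and fst, with 6 over the D120 ovaries.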
